A study of Homo sapiens with 20 samples.

Results

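The keratins followed here were chosen by symbol: the ductal keratins KRT7, KRT8, KRT18 and KRT19 and the basal and stress keratins KRT5, KRT6A, KRT14, KRT15, KRT16 and KRT17. These genes are 10 of the 60656 rows of the deposited gene table, and all 10 passed the filter on low counts that left 24790 rows for testing. RNA was sequenced from 20 samples labelled SW1990, a long-established cell line from a human pancreatic cancer, in a series described as a mouse model of pancreatic cancer. The 4 groups of 5 samples are named for principles of traditional Chinese medicine: heat-clearing (heat cleared, dampness removed), spleen-strengthening (qi regulated), yin-nourishing (heat eliminated) and blood-activating (stasis removed). All groups share the cell line and the disease label. No herb, dose, duration, genotype or host strain is given in the sources used here, and no untreated sample was analysed here, so every comparison sets treatments against one another. Whether replicates are separate mice, tumours or cultures is not given either, so p-values measure only the spread between these samples, which may be technical.

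Keratins are the intermediate filament proteins of epithelial cells. A filament forms only from paired type I and type II chains, so each cell makes at least one keratin of each type. In simple epithelia such as the pancreatic duct the main type II chains are KRT8 and KRT7 and the main type I chains KRT18 and KRT19. In the basal layer of stratified epithelia KRT5 pairs with KRT14, and KRT15 is a further basal type I chain. KRT6A, KRT16 and KRT17 are made in skin after wounding or other stress, where KRT6A is a type II partner of KRT16 and KRT17. Basal keratins are also used to describe the basal-like subtype of pancreatic carcinoma.

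The type II genes lie on chromosome 12 (GRCh38), where KRT7 spans 52232520 to 52252186 on the plus strand. On the minus strand of that chromosome, KRT6A spans 52487174 to 52493257, KRT5 spans 52514575 to 52520687 and KRT8 spans 52897187 to 52949954. KRT18 is the type I gene that lies apart from the other type I genes, beside KRT8 on chromosome 12 at 52948871 to 52952901 on the plus strand. The other type I genes lie on the minus strand of chromosome 17, with KRT15 at 41513743 to 41522529 and KRT19 at 41523617 to 41528308. KRT14 spans 41582279 to 41586921, KRT16 spans 41609778 to 41615899 and KRT17 spans 41619441 to 41624842 on the same strand. KRT8 and KRT18 overlap by 1084 bases on opposite strands, and KRT7 overlaps its antisense gene KRT7-AS by 2401 bases and the pseudogene KRT87P by 1721 bases, also on the opposite strand. KRT7 further overlaps the annotated span of the hair keratin gene KRT86 by 2887 bases on the same strand, which counting by strand does not resolve. The library kit keeps strand, but the strand setting used for counting is not given in the sources used here, so reads from such overlaps cannot be assigned with certainty.

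Several of these genes are near-copies, which sets how well a read can be assigned to one of them. The coding sequence of KRT6A, 1692 bases long, was 97.52% identical to that of KRT6B and 97.93% identical to that of KRT6C. The stretch below, coding positions 656 to 745 of each gene, was chosen because it holds 10 positions at which the 3 genes are not all alike, written in capitals (GENCODE 29 transcripts, chromosome 12).
KRT6A: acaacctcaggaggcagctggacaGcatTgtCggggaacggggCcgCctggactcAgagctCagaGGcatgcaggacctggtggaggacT
KRT6B: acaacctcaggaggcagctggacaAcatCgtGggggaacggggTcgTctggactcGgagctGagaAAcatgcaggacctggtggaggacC
KRT6C: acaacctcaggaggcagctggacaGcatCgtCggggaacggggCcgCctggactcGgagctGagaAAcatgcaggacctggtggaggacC

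Elsewhere long runs are the same in different genes, and the longest shared by the coding sequences of KRT14 and KRT16 has 158 bases (positions 310 to 467 of KRT14, 316 to 473 of KRT16, chromosome 17). It is shown because KRT14 and KRT16 are counted separately below although a fragment inside it fits both, and no letter is in capitals because all 158 bases are identical.
KRT14 and KRT16: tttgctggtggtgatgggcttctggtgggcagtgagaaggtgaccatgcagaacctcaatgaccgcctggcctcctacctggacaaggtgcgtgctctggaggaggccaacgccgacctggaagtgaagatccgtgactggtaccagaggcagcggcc

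Of all stretches of 75 bases in the KRT6A transcript, 26.21% also occur in another annotated gene, mostly KRT6C and KRT6B. The share was 23.43% for KRT18, mostly the overlap with KRT8, 10.01% for KRT14, 9.682% for KRT16, 9.048% for KRT7, 4.185% for KRT17, 2.442% for KRT5 and 0.2962% for KRT8. KRT19 and KRT15 shared 0 of their stretches. The read length is not given in the sources used here, so 75 bases serves only as an example. Pseudogenes named after these genes, of any type, took few counts, at most 1.66% of the counts of the gene itself (KRT18).

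Total counts were 81.69 to 135 M per library (M stands for mega), and the 10 keratins together took 0.385 to 0.793% of them. RN7SK, an abundant small nuclear RNA, took more than 4% of the counts in 5 libraries, which are called RN7SK-high: heat-clearing 01 and 02 and blood-activating 01, 08 and 09. Neither the spleen-strengthening nor the yin-nourishing group holds one, so groups with and without them differ in this as well as in treatment. The share of mRNA from the mitochondrial genome was 10.62 to 15.62% in the RN7SK-high libraries, against 17.15 to 23.22% in the other 15, and the part of this difference in the keratin values was not tested. Fold changes and counts are given for all 20 libraries first and then without the RN7SK-high ones. All 15 genes of a list that marks pancreatic carcinoma epithelium had a mean above 1 CPM (counts per M counts), led by the mucin gene MUC16. CPM values are TMM-normalised in the other paragraphs, but the marker levels and marker sums given here are not. Of 13 markers of differentiated keratinocytes, a type of skin cell, 3 had a mean above 1 CPM. Their summed level was 21.89 to 32.74 CPM in heat-clearing, 7.885 to 39.32 CPM in spleen-strengthening, 18.58 to 47.54 CPM in yin-nourishing and 8.211 to 149.5 CPM in blood-activating libraries, mostly FLG, the gene of filaggrin. The skin keratin KRT1 averaged 0.579 CPM and the envelope gene LORICRIN 0.00643 CPM, near 0. The summed level of 19 markers of acinar cells, the enzyme-making cells of the pancreas, was 3.921 to 386.2 CPM in heat-clearing, 2.873 to 79.11 CPM in spleen-strengthening, 2.217 to 1067 CPM in yin-nourishing and 10.48 to 988.1 CPM in blood-activating libraries. Over the 20 libraries the summed markers were 30.21 to 81.45 CPM for fibroblasts, 13.99 to 31.24 CPM for endothelial cells and 50.73 to 89.04 CPM for leukocytes, the last mostly CD68. The part of these other cell types in the keratin values was not tested, and in such bulk RNA fewer cells of a type and less RNA per cell cannot be told apart.

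Per kb of exon, stress and ductal keratins led the family. KRT6A stood first at 602 ± 157 CPM per kb (SD, n = 20), followed by the ductal type I keratin KRT19 at 393 ± 40.8 CPM per kb. KRT17 came next at 167 ± 73.8 CPM per kb, KRT14 at 157 ± 61.8 CPM per kb and KRT5 at 136 ± 62.1 CPM per kb. These 3 lay closer to one another than their spread over libraries. KRT18 held 65.6 ± 10.9 CPM per kb, KRT8 63.9 ± 15.5 and KRT16 54.5 ± 30.7 CPM per kb, again closer to one another than their spread. KRT7 was next at 39.5 ± 15.8 CPM per kb. KRT15, the other basal type I keratin, was far below at 1.66 CPM per kb.

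The order in the middle depended on the length used. With the principal transcript of the annotation in place of all exons, KRT8 stood at 207 ± 50.3 CPM per kb, above KRT18 at 135 ± 22.4 CPM per kb, while KRT6A at 764 ± 199 and KRT19 at 660 ± 68.6 CPM per kb stayed first and second. Among keratins outside the 10, the mucosal pair KRT4 at 112 ± 56.4 CPM per kb and KRT13 at 69.8 ± 28.8 CPM per kb and the KRT6A copy KRT6B at 100.2 ± 43.2 CPM per kb were as high as the middle of the list by exon length. Within the 10 keratins alone, the summed type II level per kb of exon was 0.755 to 1.45 times the summed type I level in the 20 libraries, with a median of 0.929. Per kb of the principal transcript it was 0.713 to 1.24 times, with a median of 0.877. Other expressed keratins, such as KRT4, KRT6B and KRT13, are not in these sums, so they do not give the balance of the whole family.

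**Figure D1:**
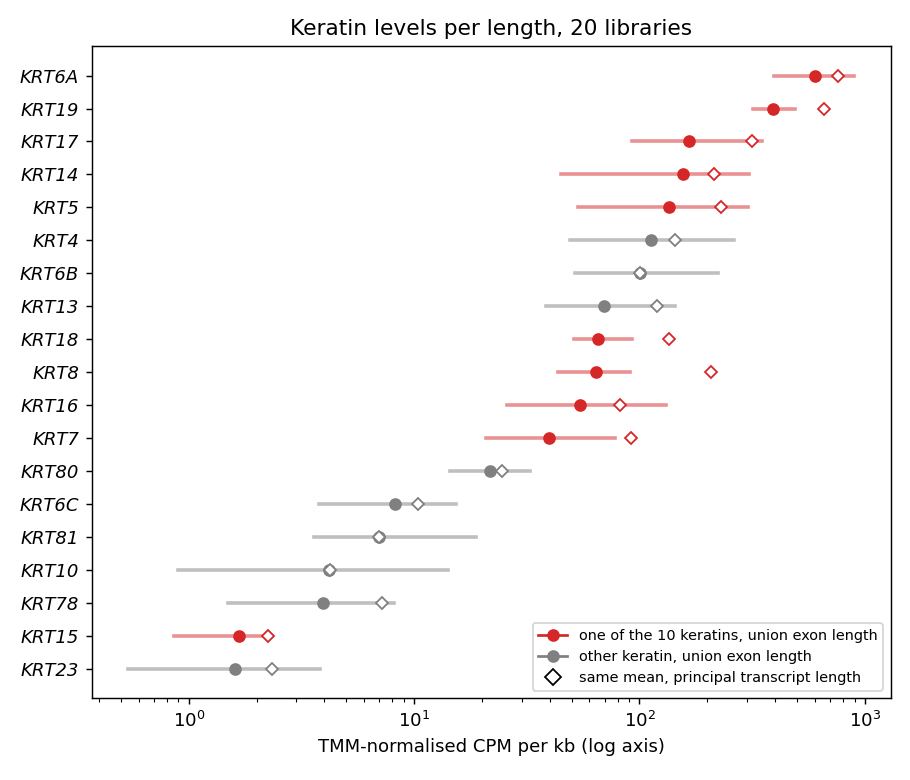
Mean TMM-normalised CPM per kb of exon (log axis) for each keratin with a mean of at least 1 CPM, with lines from the lowest to the highest of 20 libraries; red marks the 10 keratins, grey the others, and open diamonds the same mean per kb of the principal transcript. KRT6A and KRT19 lead on both scales, and KRT8 moves the most between them, to 207 from 63.9 CPM per kb.

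Between treatments, KRT17, KRT16, KRT5, KRT14 and the ductal KRT8 averaged highest in the blood-activating and heat-clearing groups and lowest in the spleen-strengthening group. The ductal KRT7 and KRT18 also averaged highest in the blood-activating and heat-clearing groups, which are those that hold RN7SK-high libraries. KRT6A had its highest means in the yin-nourishing and spleen-strengthening groups and KRT19 in the heat-clearing and yin-nourishing groups. KRT15 averaged highest in the spleen-strengthening group, and no keratin passed the adjusted test. In the test for any difference between the 4 groups, edgeR's quasi-likelihood test called 0 of 10 keratins and 0% of all 24790 genes at an adjusted p under 0.05. At an unadjusted p under 0.05 it counted 5 of 10 keratins, against 15.4% of all genes. The 5 were KRT17 (adjusted p = 0.172), KRT16 (0.183), KRT5 (0.203), KRT8 (0.224) and KRT19 (0.323), all by edgeR. The other 5 had adjusted p-values of 0.402 to 0.689. DESeq2 called 3 of the 10 in this test (KRT5, KRT16 and KRT17) and limma voom 4 (these and KRT8), where they called 1259 and 2099 genes in all. The calls therefore depended on the tool. Without the RN7SK-high libraries edgeR called 0 of 10 keratins in the 4-group test, against 0.00353% of 28334 genes, and 1 of 10 (KRT16, edgeR adjusted p = 0.989) had an unadjusted p under 0.05, against 4.46% of genes.

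**Figure D2:**
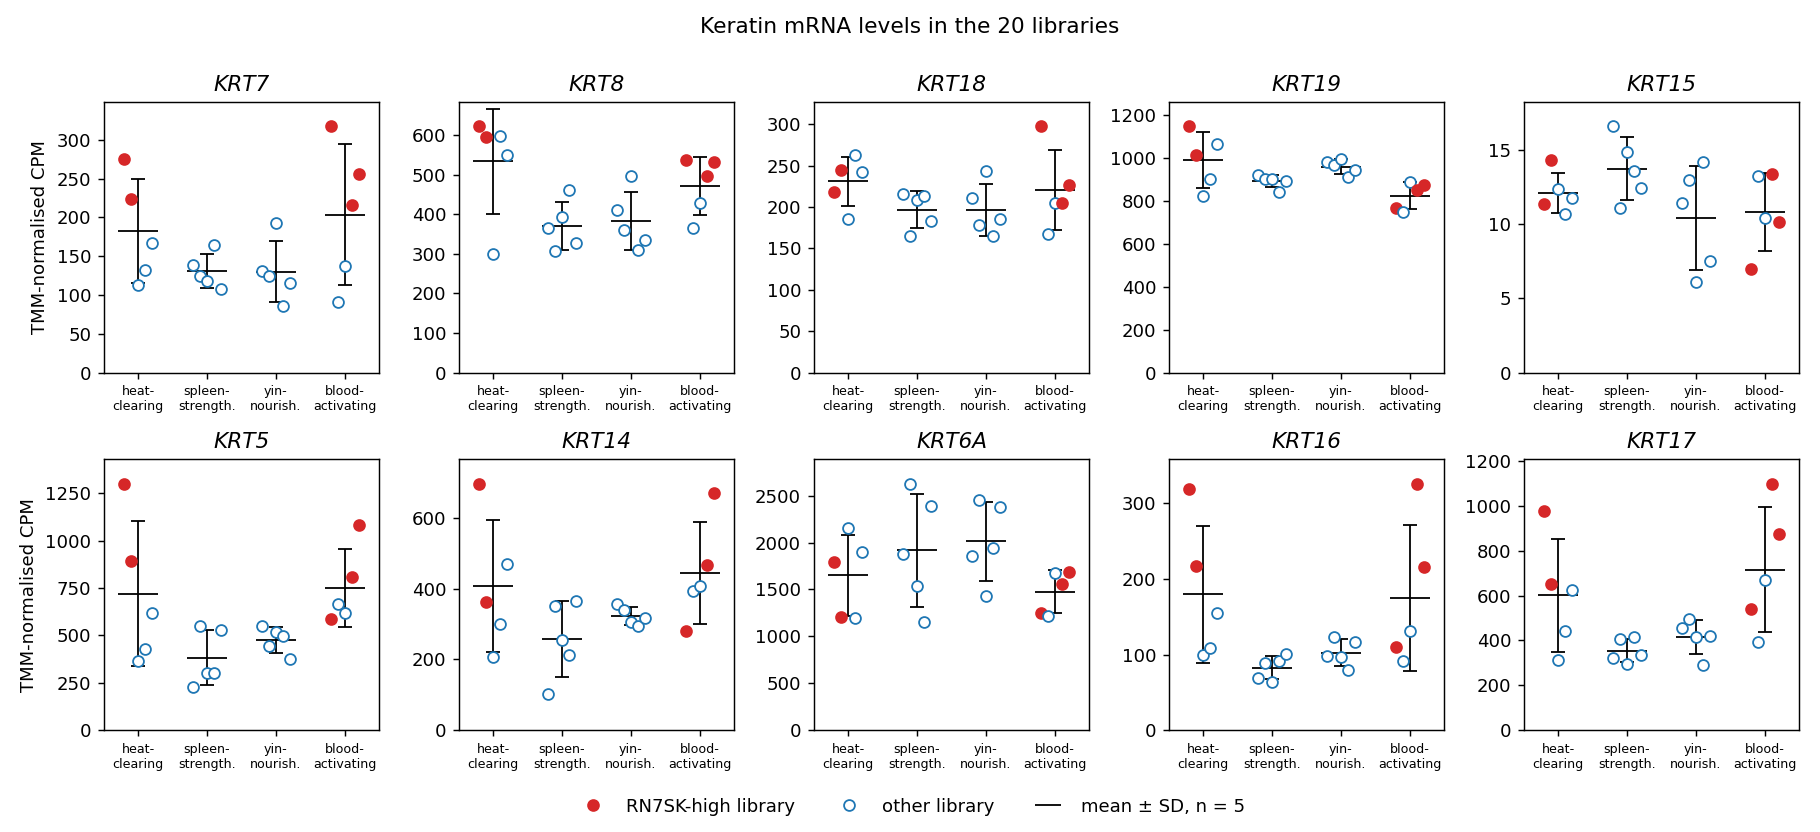
TMM-normalised CPM of the 10 keratins in each library by treatment, with the mean and SD of 5 libraries as bars; filled red points are RN7SK-high libraries. The highest KRT5, KRT16 and KRT17 values, 1300.4, 326 and 1098 CPM, are all in RN7SK-high libraries, while the highest KRT6A value, 2626 CPM, is in a spleen-strengthening library.

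KRT17, a type I keratin of skin appendages and of stressed epithelium, had the smallest p of the 10. It held 979, 652, 311, 443 and 624 CPM in heat-clearing libraries 01, 02, 03, 07 and 09, and 322, 407, 297, 414 and 336 CPM in spleen-strengthening libraries 02, 05, 06, 07 and 08. It held 457, 495, 414, 289.9 and 421 CPM in yin-nourishing libraries 01, 04, 05, 07 and 10, and 538, 392, 672, 1098 and 873 CPM in blood-activating libraries 01, 04, 06, 08 and 09. Libraries are given in this order for each gene below. The highest 3 values came from RN7SK-high libraries, and every pair of groups overlapped. Spleen-strengthening averaged 355 ± 52.3 CPM against 715 ± 278 CPM in blood-activating samples (SD over n = 5 samples, as for all group means below), and the log2 fold change was -1.01 (SE 0.27, edgeR adjusted p = 0.0911). Yin-nourishing samples, at 416 ± 77.2 CPM, differed from blood-activating ones by -0.78 (SE 0.26, edgeR adjusted p = 0.146). Heat-clearing samples, at 602 ± 252 CPM, differed from spleen-strengthening ones by 0.76 (SE 0.26, edgeR adjusted p = 0.326).

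Without the 5 RN7SK-high libraries, which leaves blood-activating with 2 libraries, KRT17 differed by -0.57 between spleen-strengthening and blood-activating samples (SE 0.26, edgeR adjusted p = 0.751), a smaller value in the same direction. Yin-nourishing and blood-activating samples then differed by -0.35 (SE 0.26, edgeR adjusted p = 0.924) and heat-clearing and spleen-strengthening samples by 0.37 (SE 0.23, edgeR adjusted p = 1). Fits that each dropped 1 library gave -1.18 to -0.82 between spleen-strengthening and blood-activating samples. KRT17 passed without blood-activating 04 (edgeR adjusted p = 0.0226) and without heat-clearing 03 (edgeR adjusted p = 0.0451), and neither library is RN7SK-high. These are 2 of 20 such fits. In that pair they called 2002 of 25619 and 311 of 25660 genes, against 0 of 24790 with all 20 libraries.

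KRT16, the type I partner of KRT6A, held 319, 217, 99.0, 108 and 156 CPM in heat-clearing libraries and 69.1, 88.4, 64.2, 91.9 and 100.2 CPM in spleen-strengthening libraries. It held 97.7, 124, 96.1, 79.1 and 116 CPM in yin-nourishing libraries and 110.3, 91.0, 132, 326 and 215 CPM in blood-activating libraries. The 4 values above 200 were all from RN7SK-high libraries, and the groups overlapped. Spleen-strengthening samples averaged 82.7 ± 15.4 CPM against 175 ± 96.8 CPM in blood-activating samples, a log2 fold change of -1.08 (SE 0.33, edgeR adjusted p = 0.0984). Heat-clearing samples, at 179.8 ± 90.7 CPM, differed from spleen-strengthening ones by 1.12 (SE 0.33, edgeR adjusted p = 0.323) and from yin-nourishing ones, at 103 ± 17.6 CPM, by 0.81 (SE 0.33, edgeR adjusted p = 0.469). Yin-nourishing and blood-activating samples differed by -0.77 (SE 0.33, edgeR adjusted p = 0.223). Without the RN7SK-high libraries these 4 values were -0.42, 0.55, 0.24 and -0.12, and none passed. KRT16 passed between spleen-strengthening and blood-activating samples without blood-activating 04 (-1.26, edgeR adjusted p = 0.0339). That fit called 2002 of 25619 genes in this pair.

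KRT5, the basal type II keratin, held 1300.4, 892, 363, 429 and 621 CPM in heat-clearing libraries and 229, 548, 304, 304 and 528 CPM in spleen-strengthening libraries. It held 549.8, 446, 516, 496 and 377 CPM in yin-nourishing libraries and 584, 664, 616, 808 and 1084 CPM in blood-activating libraries. All 5 blood-activating libraries lay above all 5 spleen-strengthening and all 5 yin-nourishing ones. KRT5 was the 1 keratin of 10 that lay wholly lower in spleen-strengthening than in blood-activating samples, against 2.49% of all genes, and the 1 that lay wholly lower in yin-nourishing than in blood-activating samples, against 1.86% of all genes. Spleen-strengthening samples averaged 383 ± 145 CPM against 751 ± 205 CPM in blood-activating samples, a log2 fold change of -0.97 (SE 0.30, edgeR adjusted p = 0.0985). Yin-nourishing samples, at 477 ± 67.2 CPM, differed from blood-activating ones by -0.66 (SE 0.30, edgeR adjusted p = 0.255). Heat-clearing samples, at 721 ± 384 CPM, differed from spleen-strengthening ones by 0.91 (SE 0.30, edgeR adjusted p = 0.323). Without the RN7SK-high libraries these were -0.74, -0.42 and 0.30, none of which passed. Only 2 blood-activating libraries then remained, 04 and 06 at 664 and 616 CPM. That both lay above every spleen-strengthening and yin-nourishing library follows from the separation of all 5 and adds nothing to it. The share of all genes that separate in so small a split was not computed. In this fit the edgeR adjusted p was 0.743 against spleen-strengthening and 0.925 against yin-nourishing samples.

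KRT14, the type I partner of KRT5, held 696, 362, 208, 299 and 469.9 CPM in heat-clearing libraries and 103, 350.3, 256, 213 and 366 CPM in spleen-strengthening libraries. It held 356, 339, 306, 295 and 318 CPM in yin-nourishing libraries and 279.9, 393, 406, 468 and 671 CPM in blood-activating libraries. The lowest value was in spleen-strengthening 02, also the lowest library for KRT5, and the groups overlapped. Spleen-strengthening samples averaged 257 ± 108 CPM against 444 ± 144 CPM in blood-activating samples, a log2 fold change of -0.79 (SE 0.32, edgeR adjusted p = 0.161). Heat-clearing samples, at 407 ± 188 CPM, differed from spleen-strengthening ones by 0.66 (SE 0.31, edgeR adjusted p = 0.433). KRT15 stayed between 6.07 and 16.6 CPM in the 20 libraries, and its smallest p was in the pair of spleen-strengthening (13.7 ± 2.13 CPM) and yin-nourishing samples (10.4 ± 3.50 CPM), at 0.39 (SE 0.21, edgeR adjusted p = 1). When the RN7SK-high libraries were left out, KRT14 differed by -0.63 between spleen-strengthening and blood-activating samples (SE 0.39, edgeR adjusted p = 0.852) and by 0.34 between heat-clearing and spleen-strengthening samples (SE 0.35, edgeR adjusted p = 1), and KRT15 differed by 0.40 in its pair (SE 0.20, edgeR adjusted p = 0.741).

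KRT6A, the most abundant keratin and a type II partner of KRT16 and KRT17, had its lowest mean where KRT17 had its highest. It held 1796, 1204, 2158, 1201 and 1897 CPM in heat-clearing libraries and 1882, 2626, 1533, 1157 and 2388 CPM in spleen-strengthening libraries. It held 1856, 2454, 1427, 1939 and 2384 CPM in yin-nourishing libraries and 1251, 1214, 1679, 1553 and 1681 CPM in blood-activating libraries. The groups overlapped, and no blood-activating library was above 1681 CPM. Yin-nourishing samples averaged 2012 ± 419.9 CPM against 1476 ± 228 CPM in blood-activating samples, a log2 fold change of 0.45 (SE 0.21, edgeR adjusted p = 0.252). With the counts of KRT6A, KRT6B and KRT6C summed, an alternative chosen after seeing the data, it was 0.33 (edgeR adjusted p = 0.451). KRT6A alone differed by 0.48 in that pair without the RN7SK-high libraries (SE 0.33, edgeR adjusted p = 0.918).

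KRT6B, whose coding sequence differs from KRT6A at few positions, did not share this order. It averaged 240.2 ± 78.4 CPM in heat-clearing, 169.5 ± 52.4 CPM in spleen-strengthening, 213 ± 86.6 CPM in yin-nourishing and 292 ± 141 CPM in blood-activating samples. The means of KRT17 had the same order as those of KRT6B. Between spleen-strengthening and blood-activating samples KRT6B differed by -0.79 (SE 0.34, edgeR adjusted p = 0.195), whereas KRT6A differed by 0.38 there. The ratio of KRT6A to KRT6B counts was 9.81 to 12.7 in spleen-strengthening libraries and 3.04 to 10.3 in blood-activating libraries, and it was 5.48 to 9.94 in heat-clearing and 7.57 to 13.8 in yin-nourishing libraries. The ratio of KRT6A to KRT17 CPM was 1.83 to 6.93 in heat-clearing, 2.80 to 7.11 in spleen-strengthening, 3.44 to 6.69 in yin-nourishing and 1.41 to 3.10 in blood-activating libraries. Every yin-nourishing library thus lay above every blood-activating one in the ratio of KRT6A to KRT17. These ratios were examined after the levels were seen and were not tested.

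KRT8, the type II chain of simple epithelia, held 622, 594, 301, 598 and 550.4 CPM in heat-clearing libraries and 366, 307, 392, 462 and 328 CPM in spleen-strengthening libraries. It held 411, 360.3, 496, 310.2 and 334 CPM in yin-nourishing libraries and 537, 364, 428, 498 and 531 CPM in blood-activating libraries. Heat-clearing 03 had the lowest value of the 20, and the other 4 heat-clearing libraries lay above every library of the other 3 groups. Heat-clearing samples averaged 533 ± 133 CPM against 371 ± 60.5 CPM in spleen-strengthening samples, a log2 fold change of 0.52 (SE 0.17, edgeR adjusted p = 0.323). Against yin-nourishing samples, at 382 ± 73.7 CPM, the difference was 0.48 (SE 0.17, edgeR adjusted p = 0.456). Both differences were smaller without the RN7SK-high libraries, 0.38 and 0.34 (SE 0.20 each, edgeR adjusted p = 1 for both). Without heat-clearing 03 KRT8 passed the 4-group test (edgeR adjusted p = 0.0455). That fit called 378 of 25660 genes in the 4-group test, against 0 of 24790 with all 20 libraries.

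KRT18, its type I partner, ranged from 165 to 298 CPM over the 20 libraries. Its group means were 231 ± 30.0 CPM in heat-clearing, 197 ± 21.9 CPM in spleen-strengthening, 197 ± 31.3 CPM in yin-nourishing and 220.1 ± 48.3 CPM in blood-activating samples. Its smallest p was between heat-clearing and yin-nourishing samples, at 0.23 (SE 0.14, edgeR adjusted p = 0.594), and it was 0.23 there without the RN7SK-high libraries as well.

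KRT19, a type I keratin that marks pancreatic ducts, held 1149, 1012, 822, 902 and 1065 CPM in heat-clearing libraries and 923, 905, 902, 844 and 894 CPM in spleen-strengthening libraries. It held 982, 967, 996, 911 and 944 CPM in yin-nourishing libraries and 766, 747, 888, 852 and 873 CPM in blood-activating libraries. All 5 yin-nourishing libraries lay above all 5 blood-activating libraries, which made KRT19 the 1 keratin of 10 wholly higher in that pair, against 2.26% of all genes. Yin-nourishing samples averaged 959.9 ± 33.7 CPM against 825 ± 64.3 CPM in blood-activating samples, a log2 fold change of 0.22 (SE 0.09, edgeR adjusted p = 0.218). Heat-clearing samples, at 990.2 ± 129.7 CPM, differed from blood-activating ones by 0.26 (SE 0.09, edgeR adjusted p = 1). Without the RN7SK-high libraries these 2 values were 0.23 and 0.19.

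KRT7, a type II ductal keratin, followed the RN7SK-high libraries most closely of the 10. It held 276, 224, 113, 133 and 168 CPM in heat-clearing libraries and 139, 124, 118, 164 and 108 CPM in spleen-strengthening libraries. It held 131, 124, 193, 85.5 and 116 CPM in yin-nourishing libraries and 318, 90.6, 138, 215 and 256 CPM in blood-activating libraries. The 5 RN7SK-high libraries held the 5 highest values, so they were wholly higher within heat-clearing and within blood-activating samples alike. KRT7 was the 1 keratin of 10 to separate in this way, against 12.3% of all genes, so the count is near that of genes at large. Spleen-strengthening samples averaged 131 ± 21.9 CPM and differed from blood-activating ones, at 204 ± 90.8 CPM, by -0.64 (SE 0.29, edgeR adjusted p = 0.225). Yin-nourishing samples, at 129.9 ± 39.2 CPM, differed from blood-activating ones by -0.65 (SE 0.29, edgeR adjusted p = 0.247). Without the RN7SK-high libraries both changed sign, to 0.20 and 0.19. Within the heat-clearing group alone KRT5, KRT16 and KRT17 were also wholly higher in the RN7SK-high libraries, and within the blood-activating group alone KRT8 was. The share of all genes wholly higher within a single group was not computed, and it is at least the 12.3% for both groups.

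Taking the pairs as wholes, edgeR called 0 keratins in any of the 6, and 2 of all genes (0.00807%) in heat-clearing against spleen-strengthening and 0% in the other 5 pairs. At an unadjusted p under 0.05 in heat-clearing against spleen-strengthening samples, 5 of 10 keratins were higher, against 8.44% of all genes, and 0 lower, against 3.03%. The median log2 fold change of the 10 there was 0.50, against 0.02 for all genes. Spleen-strengthening against blood-activating samples gave 5 of 10 lower, against 12.2% of all genes, 0 higher, against 8.28%, and a median of -0.49, against -0.04. Yin-nourishing against blood-activating samples gave 4 of 10 lower, against 10.5% of all genes, and 2 of 10 higher, against 7.74%. Heat-clearing against yin-nourishing samples gave 2 of 10 higher, against 7.07%, and 0 lower, against 3.2%. Heat-clearing against blood-activating samples gave 1 of 10 higher, against 0.795%, and 0 lower, against 1.06%. Spleen-strengthening against yin-nourishing samples gave 0 of 10 in either direction, against 2.66% of all genes higher and 2.05% lower. Apart from the separations of KRT5 and KRT19 above, no keratin lay wholly higher or lower in any pair. The shares of all genes that did were 0.799% higher and 0.46% lower in heat-clearing against spleen-strengthening, 0.738% and 0.424% in heat-clearing against yin-nourishing and 0.182% and 0.307% in heat-clearing against blood-activating samples. They were 0.42% higher and 0.351% lower in spleen-strengthening against yin-nourishing samples and 1.94% higher in spleen-strengthening against blood-activating samples. These pairs share samples and are not separate observations. DESeq2 called 3 keratins and limma voom 6 in spleen-strengthening against blood-activating samples, and 1 and 5 in yin-nourishing against blood-activating samples. Of all 24790 genes, DESeq2 and limma voom called 1933 and 4910 in the first of these pairs and 1055 and 4172 in the second. Neither called a keratin in the other 4 pairs.

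Most of these counts were smaller without the RN7SK-high libraries, a fit of 15 libraries with 3 heat-clearing and 2 blood-activating ones, in which edgeR called 0 keratins in any pair, against 0.0106% of all genes in spleen-strengthening against blood-activating samples and 0% in the other 5. The counts without these libraries, here and for the gene lists below, were added after seeing the data. At an unadjusted p under 0.05, 1 of 10 keratins (KRT16) was higher in heat-clearing than in spleen-strengthening samples, against 2.94% of all genes, and 0 were lower, against 1.51%. Between spleen-strengthening and blood-activating samples 2 of 10 (KRT5 and KRT17) were lower, against 4.07% of all genes, and 0 higher, against 2.5%. The medians of the 10 log2 fold changes in these pairs were 0.26 and 0.00215. Between yin-nourishing and blood-activating samples 1 of 10 (KRT19) was higher, against 2.67%, and 0 lower, against 3.32%. No keratin reached this level in the other 3 pairs. There the shares of all genes were 2.94% higher and 1.42% lower in heat-clearing against yin-nourishing samples, 1.47% and 2.1% in heat-clearing against blood-activating samples and 3.64% and 3.18% in spleen-strengthening against yin-nourishing samples.

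**Figure D3:**
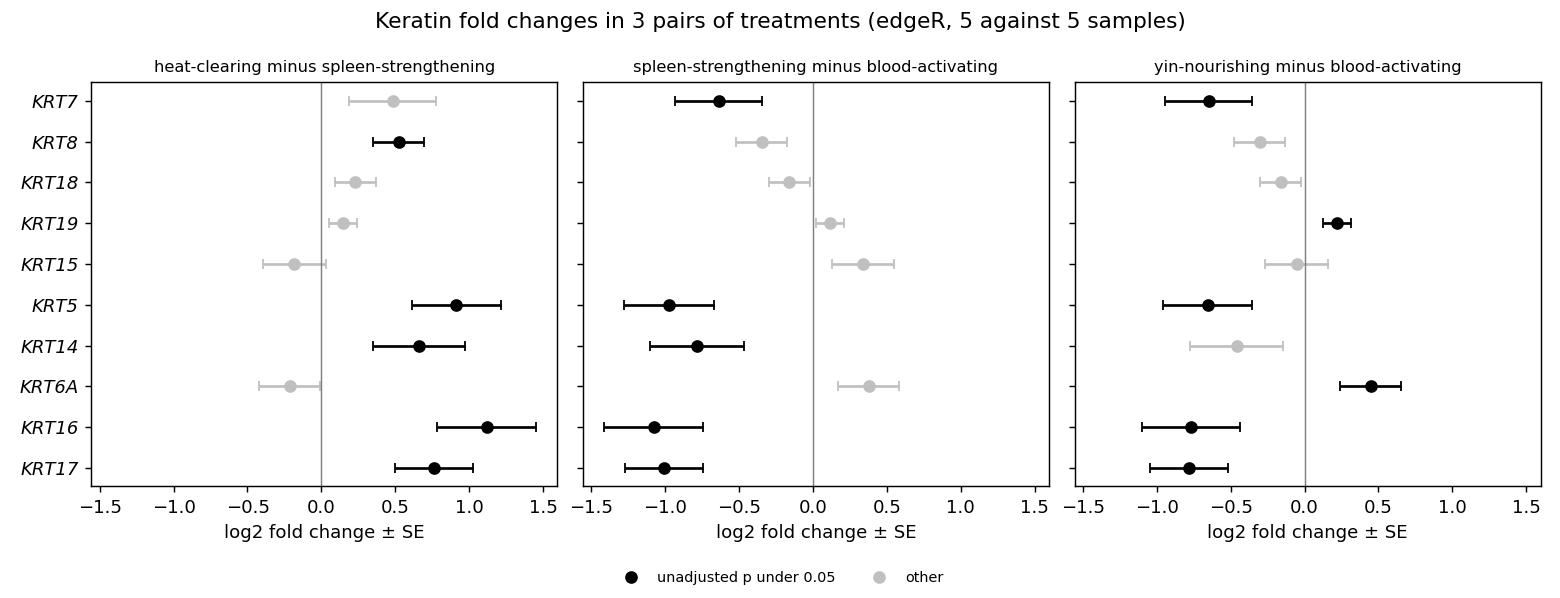
Log2 fold change with its SE for the 10 keratins in 3 pairs of treatments, 5 samples a group, black where the unadjusted edgeR p is under 0.05. KRT5, KRT16 and KRT17 lie between 0.76 and 1.12 in heat-clearing minus spleen-strengthening and between -1.08 and -0.97 in spleen-strengthening minus blood-activating, and KRT6A lies on the other side of 0 from them in all 3 panels.

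The partners KRT8 and KRT18 and the partners KRT5 and KRT14 varied together across libraries, and no correlation of KRT6A with KRT16 or KRT17 passed a test over 15 libraries. This was examined on log2 CPM over the 15 libraries that are not RN7SK-high, for 5 pairs of keratins, with 100000 permutations and p-values adjusted over the 5. KRT8 and KRT18 had Pearson's r = 0.902 (permutation adjusted p = 2.5e-05) and Spearman's rho = 0.839 (permutation adjusted p = 3e-04). Without the 2 libraries farthest from the median of KRT8 r was 0.825. KRT5 and KRT14 had r = 0.899 (permutation adjusted p = 2.5e-05) and rho = 0.918 (permutation adjusted p = 0.00015), and r = 0.877 without the 2 farthest libraries. The unadjusted p of both r values was 1e-05, the smallest that these permutations can give. Within treatments, on deviations from the treatment means, the r values were 0.915 and 0.871.

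The ductal pair KRT7 and KRT19 had r = 0.547 (permutation adjusted p = 0.0569) and rho = 0.439 (permutation adjusted p = 0.171), with r = 0.593 without the 2 farthest libraries and 0.600 within treatments. KRT6A and KRT16 had r = 0.17 (permutation adjusted p = 0.683) and rho = 0.186 (permutation adjusted p = 0.636), with 0.236 without the 2 farthest libraries and 0.377 within treatments. KRT6A and KRT17 had r = -0.06 (permutation adjusted p = 0.83) and rho = -0.07 (permutation adjusted p = 0.811), with -0.01 without the 2 farthest libraries and 0.102 within treatments. KRT8 and KRT18 also share an overlap on opposite strands, and the share of their counts from it was not tested.

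**Figure D4:**
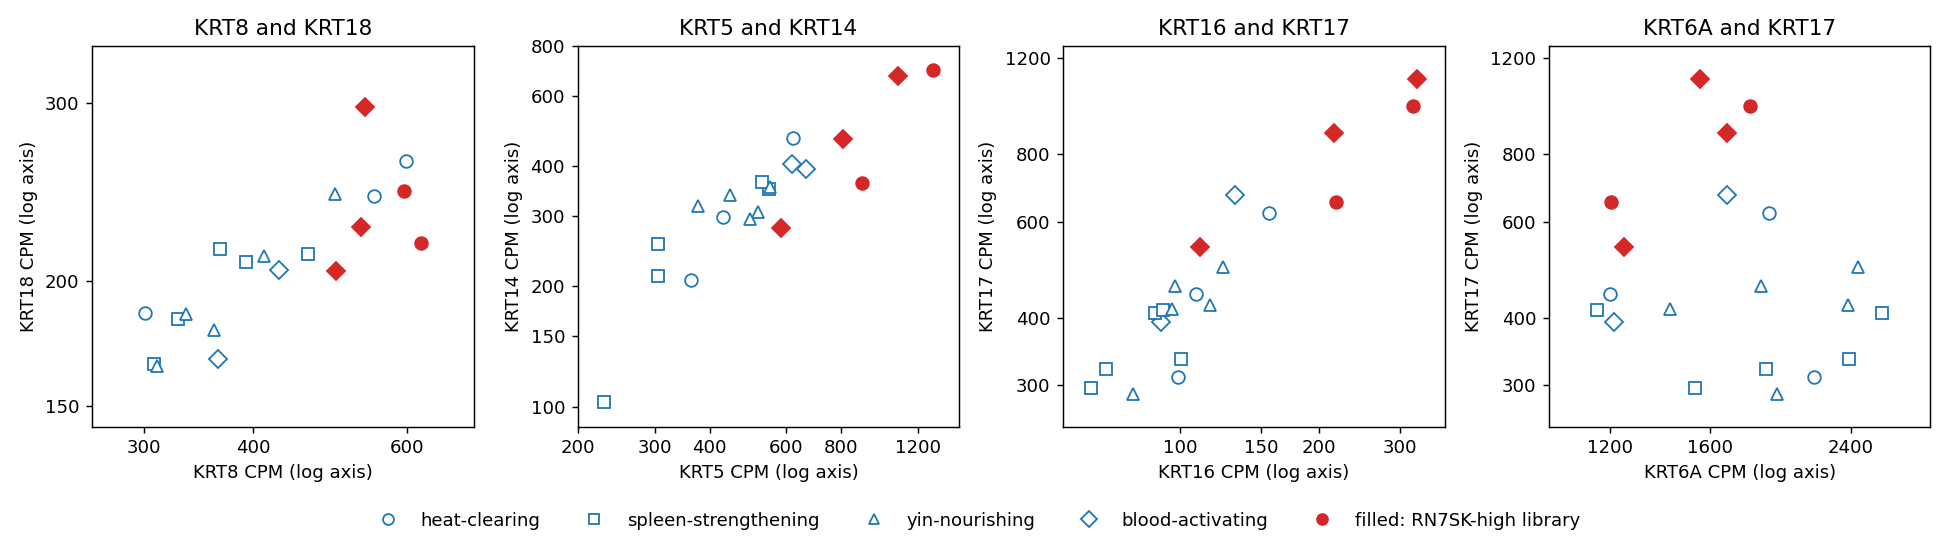
CPM of 4 pairs of keratins in the 20 libraries on log axes, by treatment (symbol) and RN7SK-high status (filled red). KRT8 with KRT18 and KRT5 with KRT14 lie along a line (r = 0.902 and 0.899 over the 15 open points), as do KRT16 with KRT17, and for KRT6A with KRT17 r was -0.06.

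In all 45 pairs of the 10 keratins, a family added after seeing the data and adjusted over the 45, KRT16 and KRT17 had r = 0.841 (permutation adjusted p = 0.00255). KRT7 had r = 0.773 with KRT18 (permutation adjusted p = 0.00866) and r = 0.699 with KRT8 (permutation adjusted p = 0.0349). KRT6A and KRT8 had r = -0.66 (permutation adjusted p = 0.0617) and rho = -0.74 (permutation adjusted p = 0.0163), so the rank test passed and the linear one did not. All 3 pairs among the ductal chains KRT7, KRT8 and KRT18 thus passed. The pairs of these 3 with KRT19, the other ductal chain, did not. KRT19 had r = 0.547 with KRT7 (permutation adjusted p = 0.14), 0.37 with KRT8 (0.35) and 0.467 with KRT18 (0.233). Among KRT5, KRT14, KRT16 and KRT17 the 6 pairs had r = 0.524 to 0.899, and 4 of them did not pass: KRT5 with KRT16 (permutation adjusted p = 0.14), KRT5 with KRT17 (0.173), KRT14 with KRT16 (0.0689) and KRT14 with KRT17 (0.138). Without the 2 libraries farthest from the median of KRT5, its r with KRT16 was 0.189. KRT17 had r = 0.51 with KRT7 and 0.56 with KRT8, about as large as its r of 0.52 with KRT5, and neither passed (permutation adjusted p = 0.176 and 0.14).

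**Figure D5:**
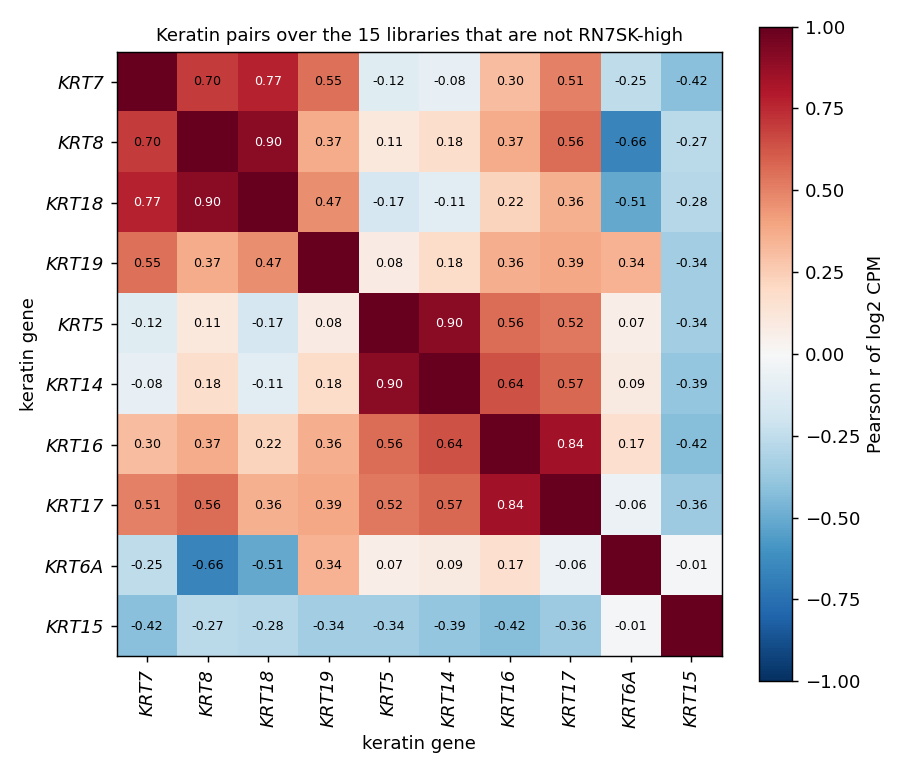
Pearson's r of log2 CPM between each 2 of the 10 keratins over the 15 libraries that are not RN7SK-high, red positive and blue negative. The 3 pairs of KRT7, KRT8 and KRT18 have r = 0.699 to 0.902, and KRT19 has r = 0.37 to 0.547 with these 3, none of which passed. The 6 pairs of KRT5, KRT14, KRT16 and KRT17 have r = 0.524 to 0.899, of which 4 did not pass the test. KRT6A is negative with KRT8 (r = -0.66).

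Among 9212 genes with a mean log2 CPM of at least 3, those most like KRT18 over the 15 libraries were TJP1, the gene of a tight junction scaffold (r = 0.91), EHD1, the gene of an endosome recycling protein (r = 0.901), and ZNF592, a zinc finger gene (r = 0.888). KRT8 had r = 0.902 with KRT18 over the same libraries, so genes outside the keratins followed KRT18 as closely as its partner did. The share of all genes that reach such an r was not computed. The values of TJP1, EHD1 and ZNF592 were picked as the highest of many and carry no test.

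The proteins that keratin filaments attach to showed 0 calls by edgeR in any pair. Of 13 desmosome genes, 2 were lower and 3 higher in spleen-strengthening than in blood-activating samples at an unadjusted p under 0.05, with a median log2 fold change of -0.13. The plaque proteins PKP1 (27.8 ± 15.9 CPM in spleen-strengthening against 76.2 ± 25.8 CPM in blood-activating samples) and JUP (536 ± 47.9 CPM in spleen-strengthening against 759 ± 141 CPM in blood-activating samples) had the smallest p in the 4-group test (edgeR adjusted p = 0.191 and 0.2). Of 14 plakins and other keratin-binding genes, 7 were lower and 3 higher in that pair, with a median of -0.26. The plakin EPPK1 stood at 32.0 ± 5.06 CPM in spleen-strengthening against 76.3 ± 37.3 CPM in blood-activating samples and FAM83H, which organises keratin filaments, at 51.5 ± 2.80 CPM in spleen-strengthening against 93.2 ± 36.1 CPM in blood-activating samples (edgeR adjusted p = 0.172 and 0.203 in the 4-group test). Of 10 genes of the hemidesmosome and basement membrane, 3 were lower and 1 higher, with a median of -0.27. They included the anchoring collagen COL7A1 at 19.6 ± 2.33 CPM in spleen-strengthening against 35.8 ± 8.60 CPM in blood-activating samples and the laminin chain LAMB3 at 349.6 ± 43.4 CPM in spleen-strengthening against 619 ± 245 CPM in blood-activating samples (edgeR adjusted p = 0.172 and 0.19).

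Other intermediate filament genes gave 3 of 12 lower and 0 higher in the same pair at an unadjusted p under 0.05, with a median of -0.37. The nuclear lamin gene LMNA stood at 75.8 ± 18.1 CPM in spleen-strengthening against 177 ± 73.1 CPM in blood-activating samples and NES, the gene of nestin, at 1.43 ± 0.513 CPM in spleen-strengthening against 3.46 ± 2.20 CPM in blood-activating samples (edgeR adjusted p = 0.172 and 0.202 in the 4-group test). Of 27 regulators of keratin genes 8 were lower and 2 higher, with a median of -0.25. The epithelial transcription factors KLF4 (15.3 ± 2.46 CPM in spleen-strengthening against 27.3 ± 8.21 CPM in blood-activating samples) and SOX15 (7.28 ± 0.289 CPM in spleen-strengthening against 11.2 ± 1.79 CPM in blood-activating samples) had the smallest p (edgeR adjusted p = 0.172 and 0.191). All these shares stand beside 12.2% of all genes lower and 8.28% higher in that pair, with a median of -0.04. In that pair edgeR again called 0 genes of these 5 lists without the RN7SK-high libraries. Then 2 desmosome genes were lower and 2 higher at an unadjusted p under 0.05 (median -0.16), 0 plakin or keratin-binding genes either way (-0.11), 1 hemidesmosome or basement membrane gene lower (0.0059), 0 other intermediate filament genes either way (-0.33), and 6 regulators lower and 1 higher (-0.18), against 4.07% of all genes lower and 2.5% higher.

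Keratins outside the 10 likewise had 0 calls by edgeR. Of 11 tested keratins of stratified epithelia, 3 were lower in spleen-strengthening than in blood-activating samples at an unadjusted p under 0.05, with a median of -0.59. The counts here and below stand beside 12.2% of all genes lower and 8.28% higher in that pair, with a median of -0.04. The mucosal keratin KRT13 stood at 154 ± 43.4 CPM in spleen-strengthening against 275 ± 114 CPM in blood-activating samples and KRT78 at 8.65 ± 2.83 CPM in spleen-strengthening against 14.7 ± 4.58 CPM in blood-activating samples (edgeR adjusted p = 0.295 and 0.383 in the 4-group test). Of 6 other simple and regenerative keratins 1 was lower, with a median of -0.48, and KRT24 and KRT80 had the smallest p (edgeR adjusted p = 0.332 and 0.365 in the 4-group test). Of 3 tested hair keratins 1 was lower, with a median of -0.78, and KRT81 and KRT86 had the smallest p (edgeR adjusted p = 0.348 and 0.805 in the 4-group test). KRT24 and KRT86 were near 0, with means of 0.751 and 0.433 CPM. Differentiated keratinocyte markers, 2 of 10 lower, had a median of -0.84 in the same pair. Only 3 of the 13 markers in the file had a mean above 1 CPM, so most of these fold changes come from levels near 0. KRT1, KRT2 and KRT10 are in this list and in that of stratified keratins, so the 2 lists are not separate. Without the RN7SK-high libraries 3 of 11 stratified keratins were lower and 1 higher in spleen-strengthening than in blood-activating samples (median -0.72). Then 1 of 6 simple and regenerative keratins was lower (-0.06) and 0 of 5 tested hair keratins differed either way (0.121). Of 10 keratinocyte markers 4 were lower and 1 higher (-1.23). These counts, at an unadjusted p under 0.05, came with 0 calls by edgeR and stand beside 4.07% of all genes lower and 2.5% higher.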

How the data were processed

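TRIzol was used to isolate total RNA, which was depleted of rRNA and made into directional libraries, per the labels' protocols. The submitters' processing notes list HISAT2, StringTie and hg38. No source used here gives the annotation, the counting strand or the handling of mouse reads. The authors deposited whole-number counts per gene, not normalised. Counts were TMM-normalised and tested with edgeR 4.0.16 (R 4.3.3, robust quasi-likelihood, minimum count 10, 24790 rows, Benjamini-Hochberg, threshold 0.05), all 20 samples in 1 fit. DESeq2 1.42.0 and limma 3.58.1 (voom with quality weights) were alternatives. Correlations used log2 CPM with a prior count of 2. Positions, lengths and sequences came from GENCODE 29. The 10 keratins and all gene lists were chosen with earlier results of these data known. All 10 are named with values, fold changes are given for each one's pair with the smallest p and every pair with an unadjusted p under 0.05, and list genes are the 2 with the smallest p. KRT1, KRT10, LORICRIN, FLG, MUC16, KRT4 and KRT6B are exceptions, picked with their values in view. The edgeR step was tested on simulated data. The genes most like KRT17 across libraries are not reported here.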

Additional observations from a re-analysis of the deposited data

Results flagged for a closer look

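KRT8 in heat-clearing replicate 03 stood at 300.6 CPM, far from the other 4 heat-clearing libraries at 550.4 to 622 CPM, with a gap of 0.777 of the group's range. This was 1 of 40 groups examined in this way, of which chance gives about 2. The library is not RN7SK-high, and its summed acinar markers stood at 386.2 CPM (not TMM-normalised), against 3.921 to 73.63 CPM in the other 4. The part of these acinar markers in the KRT8 value was not tested.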

How the results depend on the processing

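The count of keratins called was 0 in all 7 comparisons under other normalisations, filters, pseudogenes summed in, the unexplained title letter (b or C) as a covariate, and without or with a term for the RN7SK-high libraries. In the 4-group test it was 3 with DESeq2, 4 with limma voom, 1 (KRT7) with the title letter b libraries only, and 0 to 2 leaving out 1 library. In spleen-strengthening minus blood-activating it was 3, 6, 4 and 0 to 2 under the same settings. In yin-nourishing minus blood-activating it was 1, 5 and 1, and 0 in every fit without 1 library. Without heat-clearing 03 the 4-group count was 2 (KRT8 and KRT17), among 378 genes called. The cause was not tested. KRT7 turned to 0.20 without the RN7SK-high libraries and to 0.0877 with a term for them in spleen-strengthening minus blood-activating, and to 0.19 and 0.0789 in yin-nourishing minus blood-activating. KRT6A with KRT17 turned to r = 0.102 within treatments and ranged from -0.14 to 0.00249 leaving out 1 library. KRT7 with KRT19 passed within treatments (r = 0.600) and ranged from 0.392 to 0.686. Over all genes, spleen-strengthening minus blood-activating gave 0 calls with edgeR, 1933 with DESeq2, 4910 with limma voom and 3623 with the b libraries. With the b libraries, 2181 of 28063 genes were called in the 4-group test and 3039 in yin-nourishing minus blood-activating.

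With the replicate number as a block 0 keratins were called in all 7 comparisons, and KRT17 in spleen-strengthening minus blood-activating stood at -0.85 (edgeR adjusted p = 0.244). No pairing by number was seen: over 12 same-numbered pairs the correlation of deviations was -0.26 to 0.384, with 3 over 0.1. Over 138 differently numbered pairs from different treatments it was -0.522 to 0.46, with 32 over 0.1. What the numbers stand for is not given. Every keratin had at least 502 counts in every library (the lowest was KRT15 in yin-nourishing 05), so the spread between samples limits the comparisons more than counting does.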
